A study of Mus musculus with 8 samples.

Results

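The insulin-like growth factors, their receptors and their binding proteins were followed in inguinal white adipose tissue, a subcutaneous fat depot of the groin. The 10 genes were chosen by name: the ligands Igf1 and Igf2, the receptors Igf1r and Igf2r, and the binding proteins Igfbp2 to Igfbp7. All 10 had a probe on the array, 14 probes in all, and 9 genes with 12 probes were bright enough to be tested. They are 9 of 14730 genes tested.

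The Senp2-aKO mice carried Senp2flox/flox alleles together with Adipoq Cre, and the control mice carried Senp2flox/flox alleles with no Cre. Adipoq Cre is a recombinase driven by the adiponectin gene, so Senp2, whose product cleaves SUMO off its target proteins, is deleted in adipocytes and kept in the other cells of the tissue. All mice began a high-fat diet (58 kcal% fat) at 8 weeks of age, ate it for 12 weeks and were housed at 22 to 24 °C. Each group had 4 samples, numbered 1 to 4, on 1 array each, and the title of the series places Senp2 in the browning of white fat by way of C/EBPβ.

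Insulin-like growth factors resemble insulin and act mainly through the receptor tyrosine kinase encoded by Igf1r. Growth hormone drives Igf1 in the liver, and adipose tissue also makes the factor for local use. Binding proteins hold the ligands in blood and tissue fluid, proteases cut the binding proteins and free the ligand, and Igf2r removes IGF2 from the cell surface.

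The arrays showed the following before any result was drawn. Values are the processed signal as a multiple of the 75th percentile of its array, called scaled signal here, and they are compared between samples but not between genes. That percentile was 324 to 382 intensity units on Senp2-aKO arrays and 408 to 446 on controls. Senp2 itself had a scaled signal of 4.55, 4.34, 4.60 and 4.65 in Senp2-aKO samples, against 5.51, 5.51, 5.72 and 5.17 in controls. All Senp2-aKO values lay below all control values, as in 15.1% of all genes. The Senp2 difference did not pass the test across all genes (log2 fold change -0.27 with SE 0.08 in limma, adjusted p = 0.0507, n = 4 each). Its single probe has no stated position relative to the deleted exons. Of the adipocyte markers 7 of 7 were measured and 1 fell, with a summed scaled signal of 1779 to 2187 in Senp2-aKO samples and 1594 to 1856 in controls. Such a sum follows the brightest markers. The mean log2 scaled signal of the same 7 was 6.52 to 6.99 in Senp2-aKO samples and 6.89 to 7.10 in controls. Brown and beige adipocyte markers rose in 6 of 6 genes, with a sum of 222 to 528 in Senp2-aKO samples and 29.3 to 86.5 in controls. Of 6 mammary epithelium markers 3 were measured and 2 rose, with a sum of 0.357 to 3.16 in Senp2-aKO samples and 0.229 to 0.329 in controls. Krt18, which did not pass (adjusted p = 0.0738 in limma), had 0.123 to 2.83 in Senp2-aKO samples and 0.112 to 0.188 in controls. The markers that rose were dim in Senp2-aKO samples, with 0.0875 to 0.115 for Krt14 and 0.146 to 0.232 for Krt5. Skeletal muscle markers rose in 8 of 8 genes, and their sum was 332 to 946 in Senp2-aKO samples and 8.18 to 72.1 in controls. The array of aKO 2 stood apart, with a B lymphocyte sum of 47.5 against 1.15 to 1.19 on the other 3 Senp2-aKO arrays and 0.841 to 6.75 in controls (5 of 6 markers measured). Control and Senp2-aKO arrays lay in different rows of 1 slide, and the effect of a row cannot be told apart from that of the genotype. The labels do not say that each sample came from a separate mouse, and the p-values measure the spread between these samples.

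Of the 9 measured genes, Igfbp6 rose and none fell by the test across all genes (limma, Benjamini-Hochberg adjusted p under 0.05). Over all genes 7.29% rose and 7.12% fell, so 1 of 9 is near the background share. At an unadjusted p under 0.05, 1 of the 9 was higher and 3 were lower, against 14.7% and 17.6% of all genes. The median log2 fold change was -0.0042 over the 9 genes and -0.02 over all genes. The count depended on single arrays: the call of Igfbp6 was lost without control 1 and without control 3 (adjusted p = 0.0590 and 0.0534 in limma). In these omissions, which leave fewer samples, the rises over all genes also went down, from 1074 to 434 and 567.

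**Figure D1:**
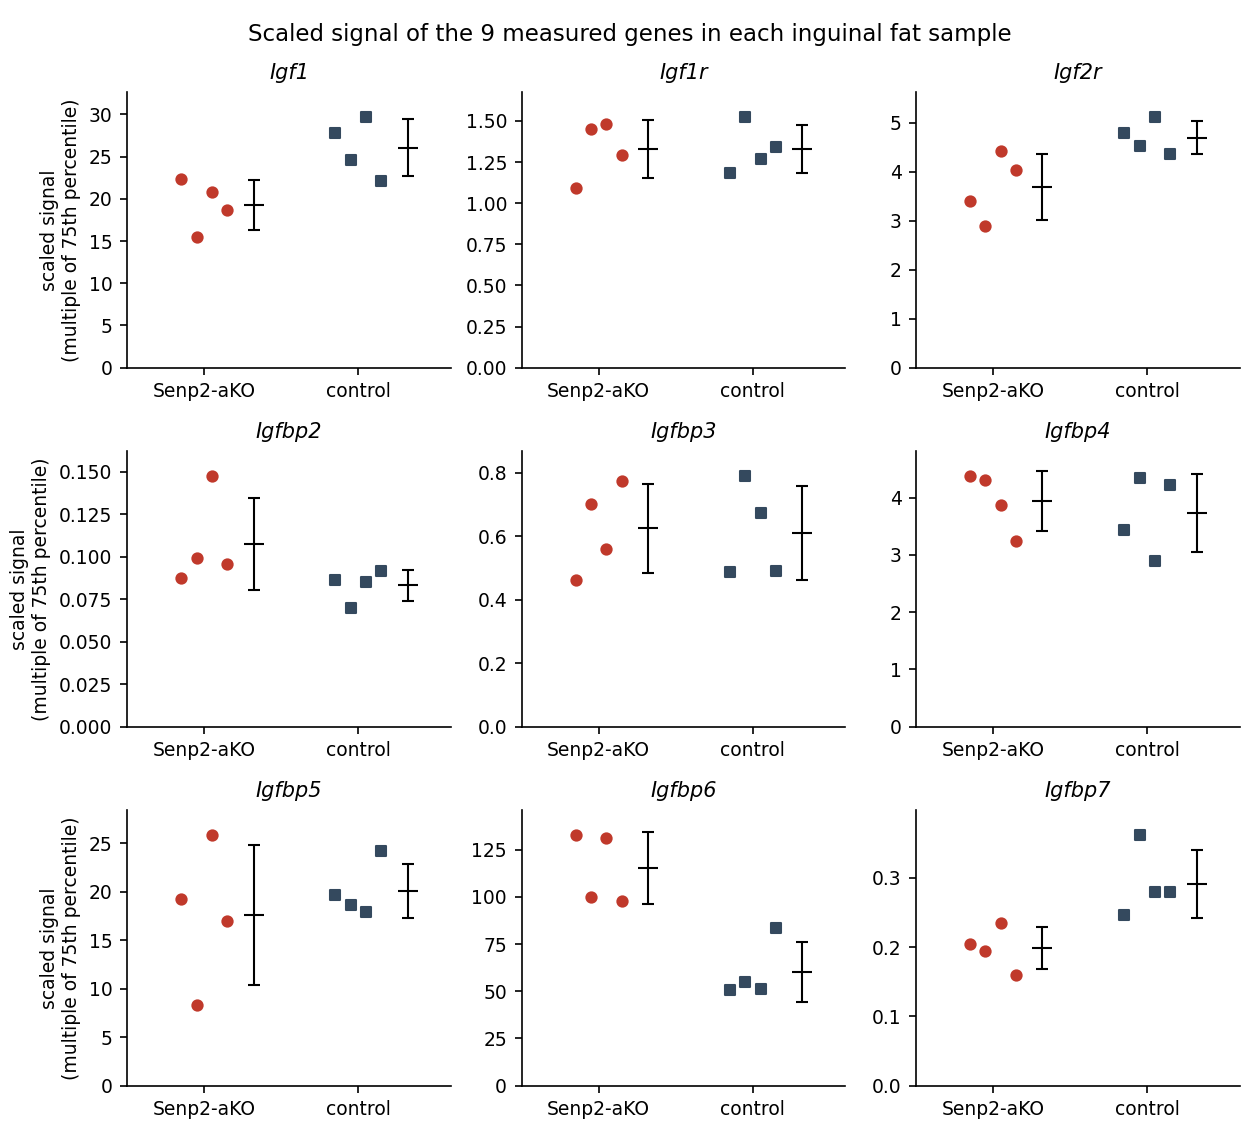
Scaled signal (multiple of the 75th percentile of the array, vertical axis from 0) of the 9 measured genes in 4 Senp2-aKO samples (circles) and 4 control samples (squares), with the mean and SD beside each group. Igfbp6 is above all controls in every Senp2-aKO sample (97.9 to 133 against 50.6 to 83.7) and Igfbp7 is below them (0.160 to 0.235 against 0.246 to 0.362).

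Igfbp6 encodes a binding protein that prefers IGF2 over IGF1. Its scaled signal was 133, 99.9, 131 and 97.9 in Senp2-aKO samples, against 50.6, 55.2, 51.3 and 83.7 in controls. The groups did not overlap, and control 4 was the highest of the controls. Igfbp6 rose 1.94-fold (log2 fold change 0.96, SE 0.19, by limma, adjusted p = 0.0182, n = 4 per group). Over all genes, 11.2% had every Senp2-aKO sample above every control. The log2 fold change was 0.89 without control 1 (adjusted p = 0.0590), 0.89 without control 3 (adjusted p = 0.0534) and 1.02 without aKO 2 (adjusted p = 0.0209).

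The 250 bases before the start of Igfbp6, the gene of the 10 that passed, are shown from RefSeq (GRCm38.p6, chr15:102143936-102144185, plus strand). Capitals mark the letters CCAAT, searched with its reverse complement ATTGG, a motif found in many promoters.
Igfbp6: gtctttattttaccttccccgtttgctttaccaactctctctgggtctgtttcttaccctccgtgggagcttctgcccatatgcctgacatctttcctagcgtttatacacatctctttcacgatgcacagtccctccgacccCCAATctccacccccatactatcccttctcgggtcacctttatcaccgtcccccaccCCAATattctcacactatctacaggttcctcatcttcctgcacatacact
The matches begin 107 and 50 bases before the start. Of 32851 such windows in the RefSeq table, 33.9% hold at least 1 match and 10.1% at least 2. The 10 genes have 14 windows, since Igfbp2 and Igf2 have several starts, and 3 of the 14 hold CCAAT. The letters TTGCNNAA, a form of the site that C/EBP proteins bind, were searched on both strands and are in 0 of the 14 windows, against 9.56% of all windows.

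Markers of adipose progenitors and fibroblasts were read beside Igfbp6, which is known as a gene of fibroblasts. All 10 listed markers were measured, and 2 rose, 1 fell and 7 did not pass. Their summed scaled signal was 732 to 938 in Senp2-aKO samples and 706 to 755 in controls. The following genes were named after their values were seen. Dpp4, a surface peptidase of early progenitors, had 2.30, 2.80, 2.37 and 2.03 in Senp2-aKO samples, against 0.841, 0.825, 0.986 and 1.49 in controls (log2 fold change 1.23, SE 0.20, by limma, adjusted p = 0.0104). Ly6a, a surface antigen of stem and progenitor cells, had 54.5, 52.1, 44.2 and 49.9 in Senp2-aKO samples, against 25.03, 22.0, 25.4 and 30.8 in controls (0.97, SE 0.12, adjusted p = 0.00510). Pdgfrb, a growth factor receptor of mesenchymal cells, fell, with 4.04, 2.93, 4.07 and 3.50 in Senp2-aKO samples, against 5.69, 5.49, 6.45 and 5.92 in controls (-0.71, SE 0.13, adjusted p = 0.0132). The markers that did not pass went both ways. The log2 fold change was 0.20 for Pdgfra, 0.21 for Cd34, 0.97 for Pi16 and 0.30 for Dcn, and -0.64 for Col1a1, -0.68 for Col3a1 and -0.81 for Lum (adjusted p from 0.0826 for Lum to 0.380 for Cd34). For Igfbp6, Dpp4 and Ly6a, control 4 had the highest value of the controls. In whole tissue a larger number of cells of a type and more RNA per cell cannot be told apart, and the part of progenitors in the Igfbp6 result was not tested.

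**Figure D2:**
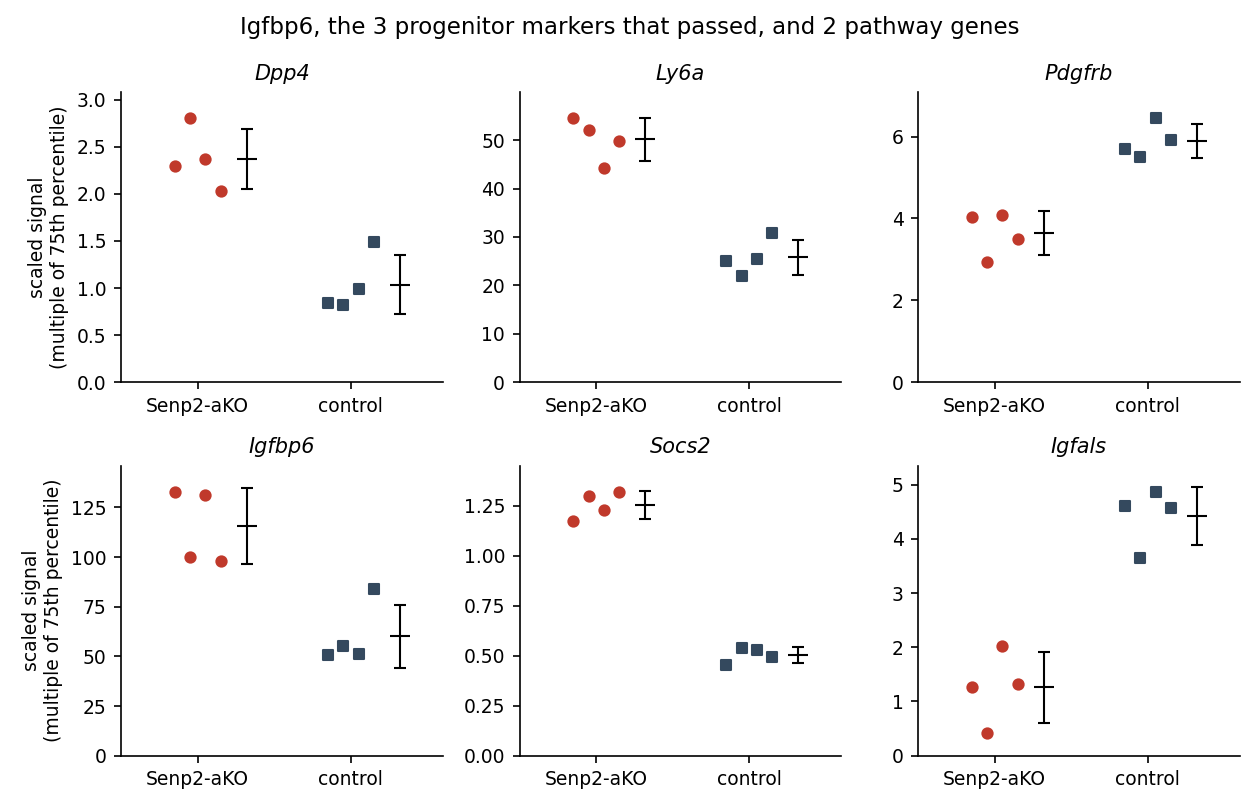
Scaled signal (multiple of the 75th percentile, vertical axis from 0) of Igfbp6, the 3 progenitor markers that passed (Dpp4, Ly6a and Pdgfrb), Socs2 of the growth hormone axis and Igfals of the circulating partners in 4 Senp2-aKO samples (circles) and 4 controls (squares), with mean and SD. Dpp4, Ly6a, Igfbp6 and Socs2 do not overlap and are higher in Senp2-aKO samples. Pdgfrb (2.93 to 4.07 against 5.49 to 6.45) and Igfals do not overlap and are lower. Over all genes, 11.2% had every Senp2-aKO sample above every control and 15.1% had every one below.

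The genes whose profile over the 8 arrays lay closest to that of Igfbp6 were Ang, Cadm3, Ang4, Krt42 and Ang2. Closeness was the root mean square difference of log2 levels after each gene was set to its own mean, and it was 0.10 for Ang and 0.15 for Ang2, the fifth. Ang, Ang4 and Ang2 are related ribonucleases of 1 family, whose probes may share signal. Ang had 2.67, 2.22, 2.46 and 2.16 in Senp2-aKO samples, against 1.08, 1.24, 0.9747 and 1.68 in controls.

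Igf1, the ligand that growth hormone induces, was read by 4 probes, of which 2 passed when tested singly. The brightest of them, A_55_P2031631, stood for the gene. It had 22.3, 15.4, 20.8 and 18.6 in Senp2-aKO samples, against 27.8, 24.6, 29.7 and 22.1 in controls. Only aKO 1 reached the range of the controls, lying above control 4. The mean was 19.3 ± 2.99 in Senp2-aKO samples and 26.1 ± 3.38 in controls (SD, n = 4 per group). The difference did not pass (log2 fold change -0.44, SE 0.15, by limma, adjusted p = 0.0824). It passed when the 4 probes were averaged (-0.62, SE 0.16, adjusted p = 0.0380), under quantile normalisation (-0.47, adjusted p = 0.0415) and with a normexp background followed by quantile normalisation (-0.49, adjusted p = 0.0218). Without aKO 2, the lowest sample, it was -0.33.

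With every kept probe tested on its own, 5.48% of 30508 probes rose and 4.35% fell, and 2 of the 4 Igf1 probes were among them. A_55_P2085974 had 5.001, 3.11, 6.62 and 4.62 in Senp2-aKO samples, against 9.12, 8.82, 8.85 and 7.74 in controls (log2 fold change -0.88, SE 0.21, by limma, adjusted p = 0.0368). A_55_P2031636 had 0.559, 0.415, 0.764 and 0.596 in Senp2-aKO samples, against 0.889, 0.922, 0.985 and 0.902 in controls (-0.70, SE 0.17, adjusted p = 0.0427). On both probes the groups did not overlap, and aKO 2 was the lowest sample. Over all genes, 15.1% had every Senp2-aKO sample below every control, and the share over probes was not computed. Both calls were lost in 6 of 8 omissions of 1 array, all but those of aKO 2 and aKO 3, with adjusted p up to 0.101 for the first and 0.113 for the second. A_55_P2085984, which did not pass, had 17.3, 11.6, 15.5 and 13.3 in Senp2-aKO samples, against 22.4, 18.3, 23.1 and 16.3 in controls (-0.48, SE 0.17, adjusted p = 0.108).

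Within arrays, the log2 signal of each other probe was set against that of A_55_P2031631. The groups overlapped for all 3 probes, and the differences were not tested. For A_55_P2085974 the difference averaged -2.03 ± 0.28 in Senp2-aKO samples and -1.59 ± 0.12 in controls (SD, n = 4 per group), and aKO 3, at -1.65, lay inside the control range of -1.75 to -1.48. For A_55_P2031636 it averaged -5.07 ± 0.25 in Senp2-aKO samples and -4.81 ± 0.16 in controls. For A_55_P2085984 it averaged -0.42 ± 0.05 in Senp2-aKO samples and -0.38 ± 0.06 in controls. All 4 probes carry the same transcript accession in the files, and their places along the transcript are not stated there.

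**Figure D3:**
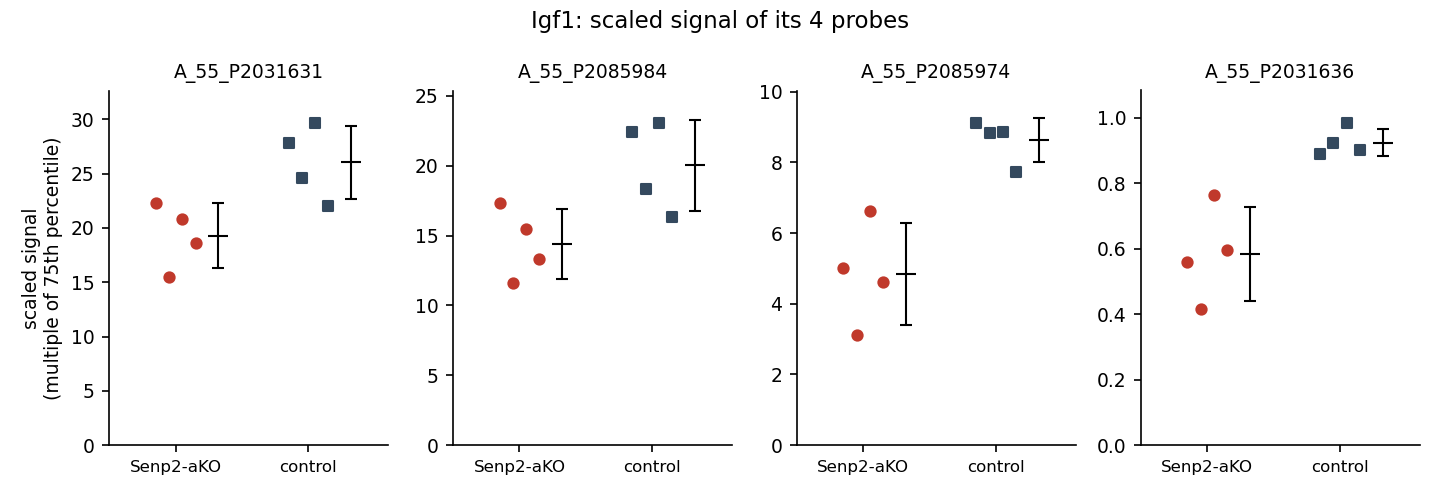
Scaled signal (multiple of the 75th percentile, vertical axis from 0) of the 4 Igf1 probes, brightest first, in 4 Senp2-aKO samples (circles) and 4 controls (squares), with mean and SD. The groups overlap on the brighter pair of probes and do not overlap on A_55_P2085974 (3.11 to 6.62 against 7.74 to 9.12) or A_55_P2031636 (0.415 to 0.764 against 0.889 to 0.985).

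Macrophages and progenitors make Igf1 in fat, and their markers were read beside it. Of 7 macrophage markers 6 were measured, 1 of which rose, and their summed scaled signal was 94.8 to 124 in Senp2-aKO samples and 81.7 to 134 in controls. Csf1r alone had 68.2 to 87.3 in Senp2-aKO samples and 61.2 to 90.6 in controls. At an unadjusted p under 0.05 in limma, 3 of the 6 were higher and 0 were lower, and 5 log2 fold changes were positive. Of the 10 progenitor markers, 3 were higher and 3 were lower at that threshold. The marker that rose, named after its value was seen, was Cd163, a scavenger receptor of tissue macrophages (log2 fold change 1.04, SE 0.21, by limma, adjusted p = 0.0192). The part of either cell type, or of the muscle transcripts described above, in the Igf1 values was not tested.

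The profiles closest to Igf1 over the 8 arrays were those of Ormdl2, Sumf2, Creb3, Arhgap23 and Dynlt1c, with root mean square differences of 0.07 to 0.08 on the log2 scale. Ormdl2, a regulator of sphingolipid synthesis, had 6.55, 5.04, 6.39 and 5.91 in Senp2-aKO samples, against 8.74, 7.76, 8.73 and 7.47 in controls.

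Igf2, the imprinted ligand of fetal growth, was well above background on 0 of 4 arrays of Senp2-aKO samples and 1 of 4 of controls. Its scaled signal was 0.0143 to 0.0457 in Senp2-aKO samples and 0.0262 to 0.0451 in controls, and it was not tested.

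Igf1r, the receptor that transmits the signal of both ligands, had 1.09, 1.45, 1.48 and 1.29 in Senp2-aKO samples, against 1.18, 1.52, 1.27 and 1.34 in controls. The groups overlapped, with aKO 1 the lowest sample and control 2 the highest. The log2 fold change was -0.0042 (95% interval -0.30 to 0.29, by limma, adjusted p = 0.986), and its sign turned under quantile normalisation and in 4 omissions.

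Igf2r, the receptor that clears IGF2 and sorts lysosomal enzymes, was read by 1 probe with 10 spots. It had 3.41, 2.89, 4.42 and 4.03 in Senp2-aKO samples, against 4.79, 4.52, 5.11 and 4.35 in controls. Only aKO 3 reached the control range. The difference did not pass (log2 fold change -0.36, 95% interval -0.69 to -0.04, by limma, adjusted p = 0.121) and was -0.25 without aKO 2, the lowest sample.

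Igfbp7 encodes a secreted protein with low affinity for insulin-like growth factors that is made in vessel walls. It had 0.205, 0.194, 0.235 and 0.160 in Senp2-aKO samples, against 0.246, 0.362, 0.279 and 0.279 in controls. All Senp2-aKO samples lay below all controls, as they did in 15.1% of all genes. The difference just missed the threshold (log2 fold change -0.55, SE 0.16, by limma, adjusted p = 0.0507). It passed under 5 of the 17 alternatives, among them quantile normalisation (adjusted p = 0.0363), a normexp background with quantile normalisation that gave -0.31 (adjusted p = 0.0473) and the omission of aKO 3 (adjusted p = 0.0377).

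Vessel markers were read beside Igfbp7. Of 7 endothelial markers, all measured, 0 passed, and their sum was 87.1 to 130 in Senp2-aKO samples and 74.7 to 109 in controls. At an unadjusted p under 0.05, 1 of the 7 was higher and 0 were lower. Of 6 markers of smooth muscle and pericytes, all measured, 1 fell, and their sum was 28.3 to 57.2 in Senp2-aKO samples and 63.1 to 71.4 in controls. At an unadjusted p under 0.05, 4 of these 6 were lower and 0 were higher. The gene that fell, named after its value was seen, was Notch3, a receptor of mural cells (log2 fold change -0.78, SE 0.19, by limma, adjusted p = 0.0296). The part of mural cells in the Igfbp7 values was not tested.

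Igfbp5, a binding protein that also attaches to the extracellular matrix, was the most variable of the 9 tested genes in Senp2-aKO samples. It had 19.2, 8.31, 25.8 and 17.0 in Senp2-aKO samples, against 19.6, 18.7, 17.9 and 24.2 in controls. The array of aKO 2 was the lowest of all 8, and that of aKO 3 the highest. The log2 fold change was -0.29 (95% interval -1.02 to 0.43, by limma, adjusted p = 0.5605), and without aKO 2 it turned to 0.03.

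Igfbp2, a binding protein made by white adipocytes among other cells, had 0.0877, 0.0993, 0.148 and 0.0956 in Senp2-aKO samples, against 0.0862, 0.0701, 0.0854 and 0.0915 in controls. Only aKO 1 lay inside the control range, and the difference did not pass (log2 fold change 0.34, 95% interval -0.06 to 0.75, by limma, adjusted p = 0.210). A second Igfbp2 probe exceeded background on 2 of 4 arrays of Senp2-aKO samples and 0 of 4 controls and was not tested.

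Igfbp3, the main carrier of the ligands in blood, had 0.463, 0.703, 0.561 and 0.774 in Senp2-aKO samples, against 0.488, 0.790, 0.672 and 0.492 in controls. Igfbp4, an inhibitor of ligand action in tissues, had 4.38, 4.30, 3.88 and 3.23 in Senp2-aKO samples, against 3.43, 4.34, 2.90 and 4.22 in controls. Both overlapped widely. The log2 fold change was 0.04 for Igfbp3 (95% interval -0.46 to 0.54, by limma, adjusted p = 0.924) and 0.09 for Igfbp4 (95% interval -0.28 to 0.46, adjusted p = 0.727). The sign of the first turned with a normexp background and quantile normalisation and in 4 omissions, and that of the second without control 3.

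**Figure D4:**
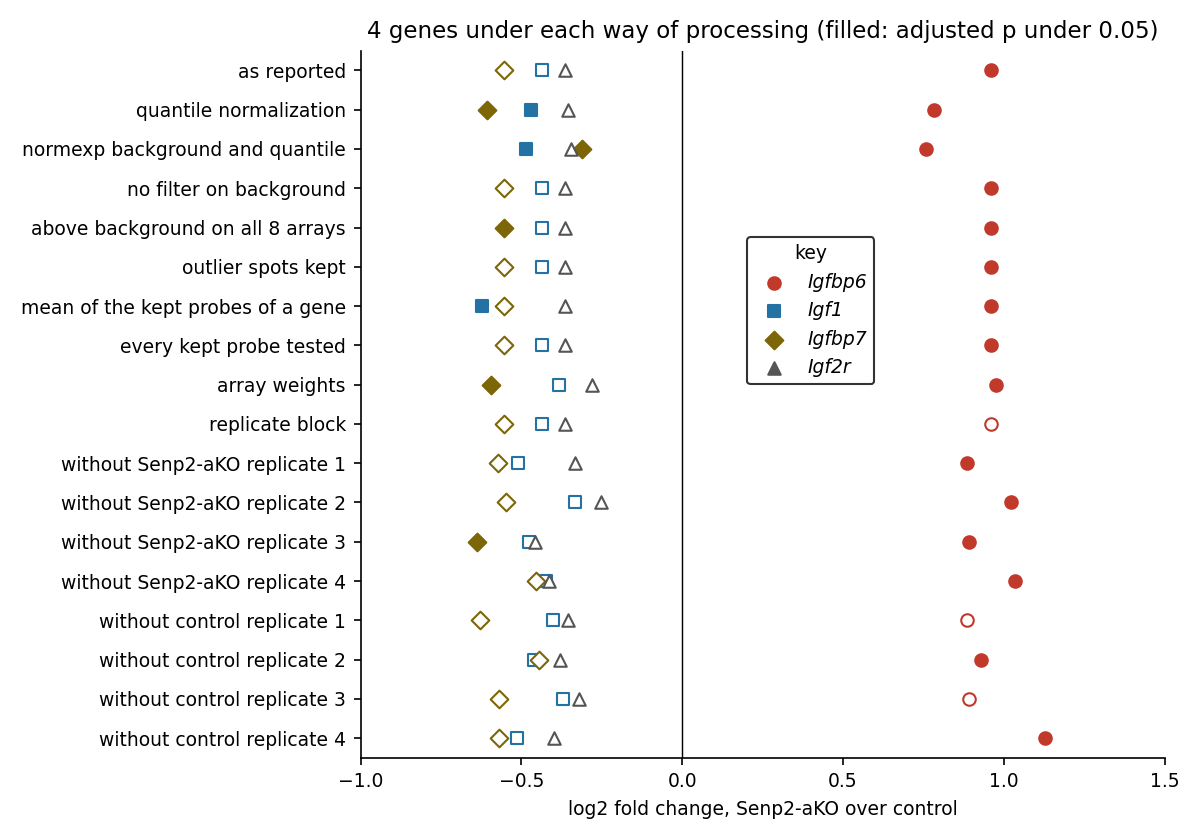
Log2 fold change (Senp2-aKO over control, horizontal axis) of Igfbp6, Igf1, Igfbp7 and Igf2r as reported and under 17 other ways of processing (vertical axis), where filled symbols have a adjusted p in limma under 0.05 and open ones do not. Igfbp6 stays above 0 (0.76 to 1.13) and the other 3 stay below 0 under every setting shown, while which symbols are filled changes.

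Around these genes, 40 others of the pathway were listed by role, and 36 were measured. Of the 36, 2 rose and 5 fell (5.56% and 13.9%, against 7.29% and 7.12% of all genes), with a median log2 fold change of -0.14. One that rose, Pappa2, met the background filter through the Senp2-aKO arrays and only 2 of 4 controls. The 4 without a value were Igf2bp1, Igf2bp3 and Igfbpl1, above background on 0 arrays, and H19, for which no probe could be named.

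In the growth hormone axis, Socs2, a suppressor of growth hormone receptor signalling that the hormone itself induces, rose. It had 1.17, 1.30, 1.23 and 1.32 in Senp2-aKO samples, against 0.455, 0.539, 0.529 and 0.491 in controls. The groups lay far apart relative to their spread, a 2.49-fold difference (log2 fold change 1.32, SE 0.09, by limma, adjusted p = 0.00102, n = 4 per group). Its other 2 probes, tested as probes, gave 1.33 and 1.30 (SE 0.11 and 0.12), and the call held under all 17 alternatives. Of the 6 genes of this list 1 rose and 5 did not pass. At an unadjusted p under 0.05, 1 was lower. Over the list, 2 log2 fold changes were positive and 4 negative. The other 5 genes were named after their values were seen. They had 0.24 for Jak2, -0.34 for Ghr, -0.18 for Stat5a, -0.20 for Stat5b and -0.48 for Cish (adjusted p in limma 0.135 to 0.511). For Ghr and Stat5b all Senp2-aKO samples lay below all controls, as in 15.1% of all genes.

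Igfals encodes the acid-labile subunit, which joins a ligand and Igfbp3 or Igfbp5 into the long-lived complex of blood, and it fell. It had 1.28, 0.423, 2.03 and 1.33 in Senp2-aKO samples, against 4.62, 3.64, 4.87 and 4.58 in controls. All Senp2-aKO samples lay below all controls, as in 15.1% of all genes, and aKO 2 was the lowest. The level was 4.01-fold lower (log2 fold change -2.00, SE 0.43, by limma, adjusted p = 0.0213) and -1.54 on the log2 scale without aKO 2 (adjusted p = 0.00709). Without control 1, control 3 or control 4 the call was lost (adjusted p = 0.0632, 0.0598 and 0.0536). The other circulating partner, Igfbp1, named after its values were seen, had 0.322, 0.0483, 0.718 and 0.289 in Senp2-aKO samples, against 0.0611, 0.0549, 0.0657 and 0.0464 in controls. Here aKO 2 lay among the controls, and the difference did not pass (2.07, SE 0.71, adjusted p = 0.0875). It passed without aKO 2 and with array weights. The Igfbp1 signals of controls were well above background on 4 of 4 arrays but dim, so the fold rests on low control values.

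Growth hormone acts on genes through STAT5, whose site can be written TTCNNNGAA, a motif that reads the same on both strands. It is in 0 of the 14 windows of the 10 genes and in 2 of the 3 windows before starts of Igfals, against 7.02% of all windows. Both Igfals matches are shown in capitals within 29 bases (RefSeq, GRCm38.p6, plus strand), at chr17:24877598-24877626 and chr17:24878163-24878191.
Igfals, first match: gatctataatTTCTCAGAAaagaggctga
Igfals, second match: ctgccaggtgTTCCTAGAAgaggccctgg
They begin 236 and 58 bases before their starts. Socs2 was looked up as well, and no window was found under its symbol.

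Among proteases of the binding proteins and the inhibitors of these enzymes, 1 of 7 rose and 1 fell. Pappa2, which cuts Igfbp3 and Igfbp5, had 0.184, 0.124, 0.0841 and 0.100 in Senp2-aKO samples, against 0.0335, 0.0259, 0.0471 and 0.0494 in controls. It cleared the background on 4 of 4 Senp2-aKO arrays and 2 of 4 controls, so its fold rests on dim signals (log2 fold change 1.64, SE 0.29, by limma, adjusted p = 0.0126). With a normexp background and quantile normalisation the value was 0.48 (adjusted p = 0.0198). Htra3, a secreted serine protease with a domain like that of the binding proteins, had 4.12, 2.95, 4.88 and 3.54 in Senp2-aKO samples, against 9.45, 7.45, 7.26 and 5.95 in controls. All Senp2-aKO samples of Htra3 lay below all controls, as in 15.1% of all genes. The log2 fold change was -0.96 (SE 0.19, by limma, adjusted p = 0.0173), and the call was lost without control 1 (adjusted p = 0.0514).

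Of 6 measured proteins that share a module with the binding proteins, 1 fell and 0 rose. Ccn5, a matrix protein of mesenchymal cells, had 2.58, 1.49, 2.60 and 1.67 in Senp2-aKO samples, against 8.08, 4.44, 6.28 and 4.11 in controls. All Senp2-aKO samples of Ccn5 lay below all controls, as in 15.1% of all genes. The call held under all 17 alternatives (log2 fold change -1.45, SE 0.27, by limma, adjusted p = 0.0149). At an unadjusted p under 0.05, 1 of the 6 was higher and 2 were lower.

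Of 4 measured genes grouped in the list for the Igf2 locus and its RNA, 0 passed in limma, and 0 had an unadjusted p under 0.05. Nearest were Plagl1, an imprinted zinc finger factor (log2 fold change -0.22, 95% interval -0.72 to 0.28, adjusted p = 0.516), and Igf2bp2, which binds Igf2 RNA (-0.10, 95% interval -0.41 to 0.21, adjusted p = 0.639).

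In the list for receptor signalling, which holds the receptor genes Insr and Insrr beside genes downstream, 2 of 11 genes fell and 0 rose. Over all genes 7.12% fell and 7.29% rose. In limma, 1 of the 11 was higher and 3 were lower at an unadjusted p under 0.05. Pik3r1, the regulatory subunit of the lipid kinase of insulin signalling, had 2.57, 2.15, 3.13 and 2.57 in Senp2-aKO samples, against 4.12, 4.44, 3.59 and 3.69 in controls (log2 fold change -0.61, SE 0.13, by limma, adjusted p = 0.0221). Irs1, the docking protein that links the receptor to that kinase, had 3.25, 2.40, 2.68 and 1.99 in Senp2-aKO samples, against 3.58, 3.94, 3.35 and 4.10 in controls (-0.55, SE 0.15, adjusted p = 0.0488). In both, all Senp2-aKO samples lay below all controls, as in 15.1% of all genes. Leaving out aKO 1, aKO 4, control 1 or control 2 ended the Pik3r1 call, with adjusted p between 0.0537 and 0.0704. The Irs1 call was lost in 7 of 8 omissions, all but that of aKO 1 (adjusted p from 0.0666 to 0.117), and its second probe gave -0.30 (SE 0.15, adjusted p = 0.234 over all kept probes).

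**Figure D5:**
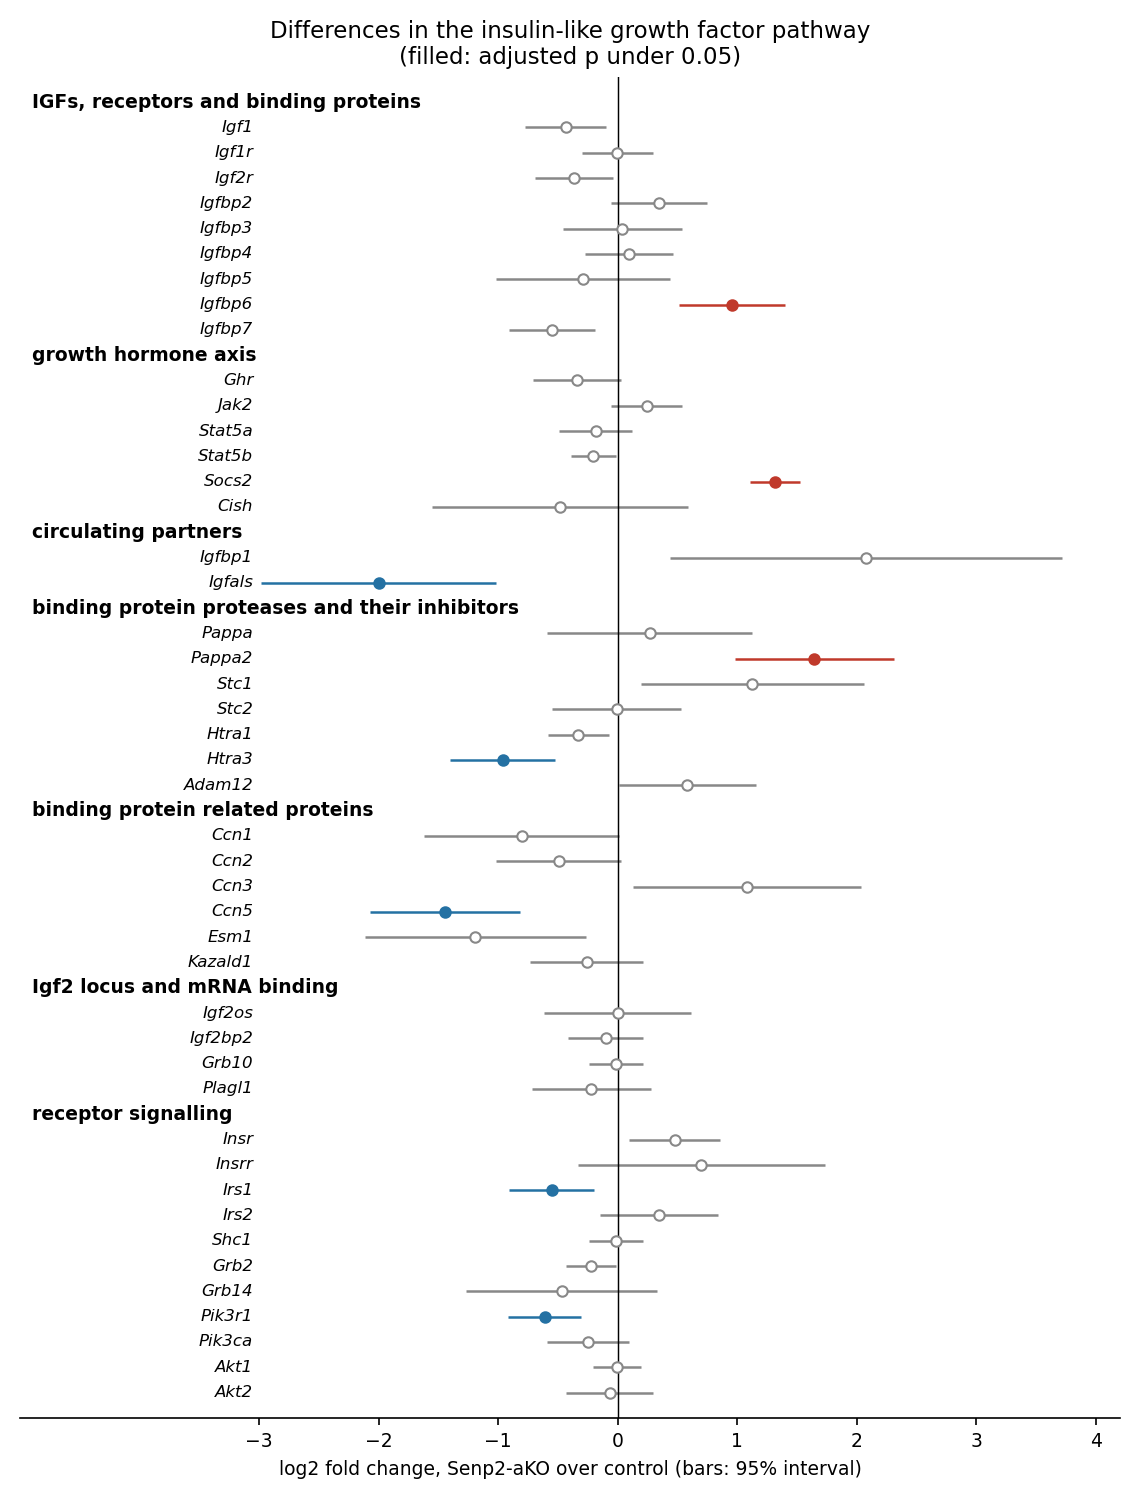
Log2 fold change (Senp2-aKO over control, horizontal axis) with its 95% interval for the 9 measured ligands, receptors and binding proteins and the 36 measured genes of the 6 pathway lists, n = 4 per group. Filled symbols passed (adjusted p under 0.05): Igfbp6, Socs2 and Pappa2 above 0 (Pappa2 exceeded background on only 2 of 4 control arrays), and Igfals, Htra3, Ccn5, Irs1 and Pik3r1 below 0.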

How the data were processed

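Total RNA (0.5 µg) of 8 samples was labelled with Cy3 and hybridised to 1-colour Agilent arrays, per the labels' protocols. The authors read the images with Agilent Feature Extraction 11.5.1, per the submitters' processing notes. The deposited processed signals are intensity values; per the file headers a background-subtracted signal stands beside them, from which they differ by a within-array step not given in the sources used here. A deposited matrix with 8 columns that match no label was not used.

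Each array's log2 signals were set against its own 75th percentile. Spots of a probe were averaged without outlier spots. Probes well above background on at least 4 of 8 arrays were kept (30508). Probes were named through RefSeq accessions (19231 kept probes), and the brightest probe stood for each of 14730 genes. limma 3.58.1 in R 4.3.3 compared the groups, with Benjamini-Hochberg adjustment over all genes, and was tested on simulated data. A positive log2 fold change means higher in Senp2-aKO samples. Intervals are 95%, and 4 arrays per group limit their precision.

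The 10 genes, 6 pathway lists and 10 marker lists were chosen with earlier results of these data known. Named are the 10 genes, every pathway gene that passed or else the 2 with the lowest p of a list, and the 5 nearest profiles of Igf1 and Igfbp6. Other pathway and marker genes given with values were named after these were seen. Promoter windows were matched by symbol to RefSeq (GRCm38.p6). Alternatives were quantile normalisation, a normexp background (offset 50) on median signals followed by quantile normalisation, background filters, outlier spots kept, probe averaging, probe-level tests, array weights, the replicate block and the omission of each array. The omissions for single Igf1 probes were chosen after seeing the data.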

Additional observations from a re-analysis of the deposited data

How the results depend on the processing

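Igfbp6 was above 0 under all 17 alternatives (log2 fold change 0.76 to 1.13). Counts that moved are given here, and the cause was not tested. Of the 10 genes, those that rose numbered 0 with the replicate block and 0 to 1 on leaving out an array. Those that fell numbered 2 under quantile normalisation, alone or after a normexp background (Igf1 and Igfbp7), 1 with the filter on all 8 arrays (Igfbp7), 1 with probe averaging (Igf1), 1 with array weights (Igfbp7), and 0 to 1 on leaving out an array. Of the pathway genes, 1 rose with the filter on all 8 arrays, which left out Pappa2, 5 rose with array weights, and 2 to 4 rose on leaving out an array. With the replicate block 3 of them fell, and 1 to 5 fell on leaving out an array. The count of falls was 7 under quantile normalisation, alone or after a normexp background (Ghr and Htra1 added). It was also 7 with array weights (Esm1 and Grb2 added). Over all genes, 1831 rose and 1932 fell with array weights, 1612 fell with normexp and quantile normalisation together (1443 with quantile normalisation alone), 689 fell with no filter and 569 fell with the replicate block. On leaving out an array 434 to 1353 rose and 280 to 1472 fell. Of all calls 50.6% were rises, against 41.8% under quantile normalisation and 40.3% under normexp and quantile normalisation together.

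Signs turned in genes that did not pass. Igf1r was 0.0017 under quantile normalisation and -0.0595 to 0.0869 on leaving out an array. Igfbp3 was -0.0252 with normexp and quantile normalisation and -0.0748 to 0.173 on leaving out an array. Igfbp4 ranged from -0.0212 to 0.185 and Igfbp5 from -0.515 to 0.0306 in the same omissions.

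The labels name no pairing of the samples. Correlations of same-numbered deviations from the group means were -0.02, -0.08, 0.14 and 0.11. Samples aKO 3 and aKO 4 correlated best with the control of their own number, and aKO 1 and aKO 2 did not. With 4 samples per group these correlations cannot show whether the samples were paired. With the replicate block the adjusted p of Igfbp6 was 0.0628, that of Pik3r1 0.0781 and that of Irs1 0.113, at the same log2 fold changes, and none of the other measured genes of the 10, Socs2, Igfals, Pappa2, Htra3, Ccn5 or Senp2 changed its side of the threshold. Of the pathway genes, only Socs2, Pappa2, Igfals, Htra3 and Ccn5 passed with the block. Single values of the other named genes with the block are not given here. Depth is limited for Igf2, Igfbp2 and Pappa2, whose signals lay near background, and for Igfbp1 in controls.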
